A study of Mus musculus with 6 samples.

Results

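The RNAs described here are long noncoding RNAs found in the embryonic mouse heart. *Malat1*, *Neat1*, *Kcnq1ot1* and *Rian* stay largely in the nucleus. *Gas5*, *Snhg1*, *Snhg5*, *Snhg8*, *Snhg12* and *Epb41l4aos* carry small nucleolar RNAs (snoRNAs) in their introns. All 10 were chosen by name as RNAs that ribosomal RNA-depleted total RNA captures well, with earlier results of these data known. Of the 10 names, 9 equal a row of the deposited table of 13809 genes. The remaining RNA, *Epb41l4aos*, is listed there under its older symbol *Epb4.1l4aos* (matched through RefSeq synonyms) and is given under that symbol. Ventricular tissue (labelled heart) of embryos at E18.5 was compared between wild-type (WT) embryos and embryos homozygous for a CRISPR/Cas9-made deletion in the exon specific to *Pkm1* (KO, labelled pkm1-knockout), with 3 libraries per genotype. The mutation was made in zygotes of the C57BL/6J and DBA/2 hybrid BDF1, is carried in every cell and not by the heart alone, and KO embryos came from heterozygous parents. *Pkm1* encodes the pyruvate kinase isoform of high-energy tissues, and the comparison asks how the heart's transcripts differ when it is missing.

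*Malat1* lies in nuclear speckles, where splicing factors gather, and *Neat1* is the scaffold of paraspeckles, nuclear bodies that hold RNA-binding proteins. *Kcnq1ot1* is transcribed from the paternal chromosome across an imprinted domain and silences genes there in cis, while *Rian* comes from the maternal chromosome of the *Dlk1*-*Dio3* domain, downstream of *Meg3*, and hosts box C/D snoRNAs and microRNAs. The snoRNA hosts make little or no protein. Their spliced exons are rapidly degraded by nonsense-mediated decay in many cells, and the snoRNAs cut from their introns guide chemical modification of ribosomal RNA. Many host genes begin transcription in a run of C and T, the feature of genes whose translation follows growth signals.

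The start sites are shown first, because runs of C and T near the start can be read from their letters. Each window runs from 10 bases before to 20 bases from the annotated RefSeq start (GRCm38.p6), 5′ to 3′ on the strand of the gene, and the longest run of C or T in it is in capitals.
Gas5, downstream start: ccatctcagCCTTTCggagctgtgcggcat
Gas5, upstream start: gcgggCCCgcgagctcgacagcccggagcc
Snhg1: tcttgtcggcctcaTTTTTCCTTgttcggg
Snhg5: gcggtgaaccgggctcgTTCTTTTacgacg
Snhg8: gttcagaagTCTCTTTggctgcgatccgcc
Snhg12: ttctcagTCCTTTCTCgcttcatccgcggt
Malat1: ggCTCTgcgtcaggcattcaggcagcgaga
Kcnq1ot1: ttgtcgctaggaggaacagttgCCTCagca
Rian: cagctatggctcactgCCCCTCagggggca
The longest run was 9 bases in *Snhg1* and *Snhg12* and 7 in *Snhg5* and *Snhg8*, against 4 in *Malat1* and *Kcnq1ot1* and 6 in *Rian*. Runs were taken anywhere in the window and need not lie at the start itself. Their first base was at position 5 in *Snhg1*, 8 in *Snhg5*, -1 in *Snhg8* and -3 in *Snhg12*, counted from the annotated start. Over all 32851 RefSeq promoter entries the median longest run was 4 bases, 7.11% held a run of at least 9 and 17.9% a run of at least 7. *Gas5* had a run of 6 at its downstream start and 3 at its upstream start. *Neat1* and *Epb41l4aos* had no entry. These are letters on the sense strand, and no reading of the RNAs' control is drawn from them.

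Several facts of the libraries bear on what follows. Total counts were 15567624 to 19875546 per library, so the floor of 3 counts was 0.151 to 0.193 CPM (counts per 1000000, scaled to library size) and covers counting error only. The columns name the genotype without a replicate number, and the libraries are called a to c in column order. The targeted gene *Pkm*, whose row takes reads of *Pkm1* and *Pkm2* together, fell from 1318 ± 41.1 to 542 ± 10.1 CPM (SD, n = 3 each). WT c stood apart from the other WT libraries, with a chi-square of 3.24 to 3.76 per gene against 1.56 between WT a and WT b and 1.62 to 1.88 among the KO libraries. *Xist*, the RNA of the inactive X, had 73 to 102 counts in WT and 36933 to 42574 in KO libraries, while no KO library had a count above 0 for *Kdm5d*, *Eif2s3y*, *Uty* or *Ddx3y* of the Y chromosome, so embryo sex and genotype cannot be told apart in any comparison here. None of the 10 RNAs is on the X or Y chromosome. The paper calls the libraries biological replicates, but nothing in the labels names separate embryos or litters. Beyond counting error, the spread between libraries of a genotype was small, with a common coefficient of variation of 3.42%. The p-values measure the spread between these libraries, which need not be that between embryos or litters in general. In these bulk samples, fewer cells of a type and less RNA per cell cannot be told apart.

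The calls lay mostly among the nuclear RNAs, which also had the higher counts and mostly the narrower intervals. The exception was the uncalled host *Gas5*, whose standard error of 0.0476 was below the 0.0504 of *Rian*. The 4 nuclear RNAs all passed the threshold, with *Neat1* and *Malat1* lower and *Rian* and *Kcnq1ot1* higher in KO hearts, while of the 6 snoRNA hosts *Snhg5* was lower and the other 5 did not pass. All 10 RNAs passed the filter on low counts. Calls were made at an adjusted p under 0.05, with p-values of the quasi-likelihood test in edgeR adjusted over 13804 genes by the Benjamini-Hochberg method (BH below). By this rule 5 of the 10 were called, 3 lower and 2 higher. Of all genes tested, 30.3% were called, 15.7% lower and 14.6% higher. The median log2 fold change of the 10 RNAs was -0.08, against 0.0017 over all genes tested. *Neat1* was the only one of the 10 to change by at least 1.5-fold, a size that 6.19% of all genes reached with an adjusted p under 0.05, 3.2% lower and 2.99% higher.

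**Figure D1:**
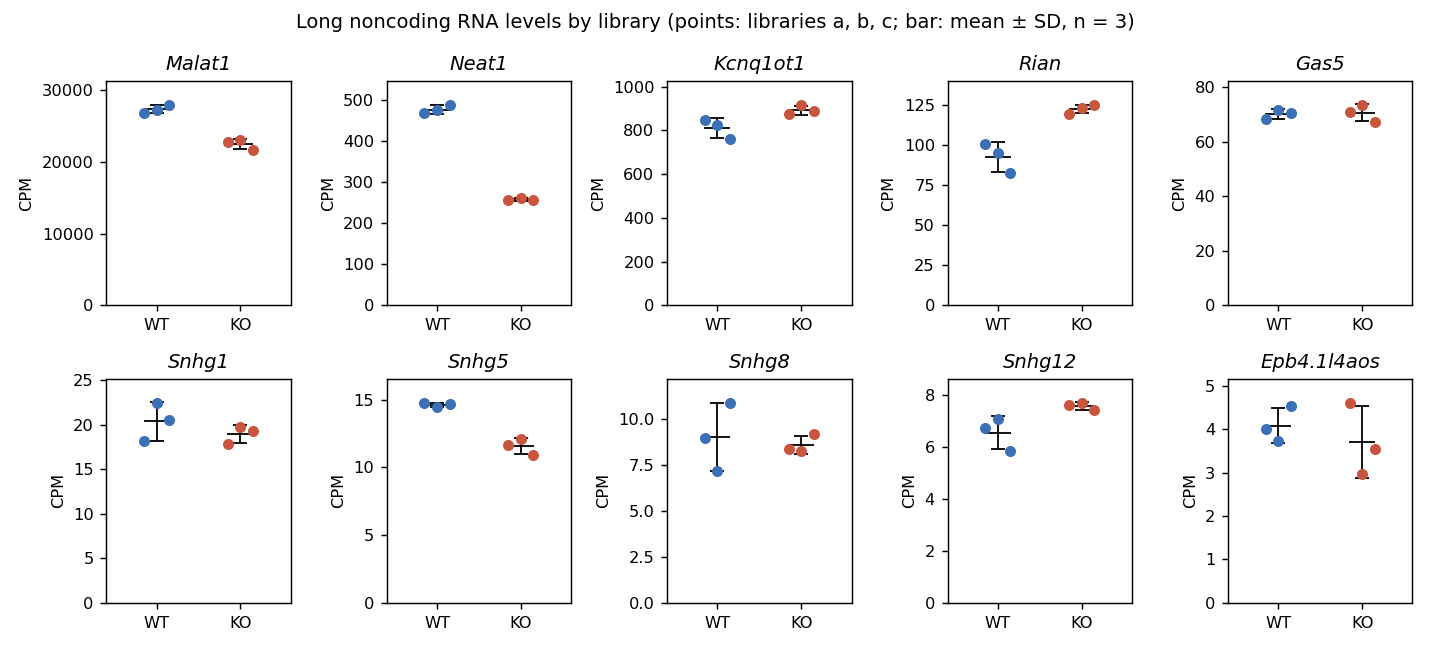
Level of each long noncoding RNA in CPM, with the 3 WT (blue) and 3 KO (red) libraries as points and the mean ± SD as bars, each axis starting at 0. The *Neat1* points fall from 467 to 487 CPM in WT to 256 to 261 CPM in KO, while those of *Gas5* overlap.

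*Neat1* showed the largest change. It was at 467, 475 and 487 CPM in WT a, b and c and at 256, 261 and 256 CPM in KO a, b and c. All KO libraries were far below all WT libraries, with a ratio of 1.79 between the lowest WT and the highest KO library. The log2 fold change was -0.89 (standard error 0.0296, edgeR BH-adjusted p = 7.36e-19), with a 95% interval from -0.95 to -0.83. *Neat1* is a lincRNA gene of 1 merged exon on the minus strand of chromosome 19, from 5824708 to 5845478 of GRCm38. Reads per gene do not separate its short polyadenylated transcript from the long transcript that paraspeckles require.

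*Malat1*, 22 kb away from *Neat1* on the same strand (chromosome 19, 5795690 to 5802672), was the third most abundant of all genes in the table. It was at 26883, 27297 and 27923 CPM in the WT libraries and at 22782, 23004 and 21668 CPM in the KO libraries. The groups did not overlap, and the KO mean was 0.822 of the WT mean. The log2 fold change was -0.28 (standard error 0.0181, edgeR BH-adjusted p = 1.72e-12). *Malat1* took 2.66% to 2.73% of all counts in WT and 2.20% to 2.34% in KO libraries, of the 2.81% to 2.87% and 2.35% to 2.49% that the 10 RNAs took together.

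*Malat1* and *Neat1* fell by unequal amounts. Within a library, *Malat1* had 57.3 to 57.6 counts for each *Neat1* count in WT and 84.6 to 89.1 in KO hearts. On the *Neat1* side, the nearest protein coding gene in the table was *Frmd8*, with a log2 fold change of -0.17 (standard error 0.0684). It did not pass the threshold (edgeR BH-adjusted p = 0.0548), although it passed without WT c and with the exact and likelihood ratio tests of edgeR.

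*Kcnq1ot1* rose by a small amount. It was at 846, 827 and 760 CPM in the WT libraries and at 873, 916 and 887 CPM in the KO libraries. The groups lay close without overlap, the lowest KO library being 1.03 times the highest WT library, and WT c was the lowest of the 6. The log2 fold change was 0.14 (standard error 0.0312, edgeR BH-adjusted p = 0.00139), and 0.09 without WT c (edgeR BH-adjusted p = 4.56e-04). *Kcnq1ot1* is annotated as an unspliced antisense transcript of 93.1 kb on chromosome 7, from 143203458 to 143296549 on the minus strand. It lies inside *Kcnq1*, a potassium channel gene on the opposite strand, and the sources used here do not state whether reads were counted by strand, so reads from the pair may be mixed.

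*Rian* rose more. It was at 101, 95.2 and 82.5 CPM in the WT libraries and at 120, 123 and 125 CPM in the KO libraries. Every KO library was above every WT library, the WT libraries were more spread than the KO libraries, and WT c was again the lowest. The log2 fold change was 0.40 (standard error 0.0504, edgeR BH-adjusted p = 7.05e-07), and 0.33 without WT c (edgeR BH-adjusted p = 8.10e-11). *Rian* lies on the plus strand of chromosome 12 (109603940 to 109661716) and spans 57777 bases, of which 18234 are annotated as exon.

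**Figure D2:**
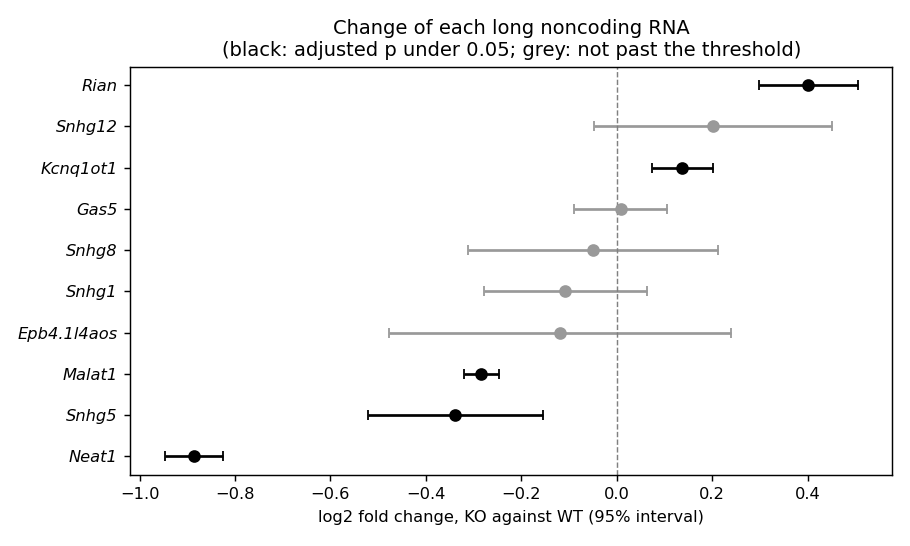
Log2 fold change of each RNA in KO against WT hearts, with the 95% interval from edgeR's quasi-likelihood fit. *Neat1* at -0.89 and *Rian* at 0.40 lie at the ends, and the intervals of *Gas5*, *Snhg1*, *Snhg8*, *Snhg12* and *Epb4.1l4aos* include 0.

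Among the snoRNA hosts, *Snhg5*, the host of the U50 snoRNAs *Snord50a* and *Snord50b*, was lower in KO hearts. It was at 14.8, 14.4 and 14.7 CPM in the WT libraries and at 11.7, 12.1 and 10.9 CPM in the KO libraries. The WT libraries were nearly equal and all above the KO libraries. The log2 fold change was -0.34 (standard error 0.0891, edgeR BH-adjusted p = 0.00488). *Snhg5* is on chromosome 9 (88521050 to 88522929, minus strand), the chromosome of the targeted gene *Pkm*, at a distance of 28.8 Mb.

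*Gas5*, the most abundant host and a host of 9 annotated snoRNA loci, had nearly equal levels. It was at 68.2, 71.8 and 70.4 CPM in the WT libraries and at 71.1, 73.4 and 67.3 CPM in the KO libraries. The groups overlapped throughout. The log2 fold change was 0.0078 with a 95% interval from -0.09 to 0.11 (edgeR BH-adjusted p = 0.920), an interval from -6.05% to 7.60% of the WT level.

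*Snhg12*, which hosts *Snora44* and 3 further annotated snoRNAs, was at 6.72, 7.09 and 5.85 CPM in the WT libraries and at 7.63, 7.70 and 7.41 CPM in the KO libraries. The groups did not overlap, yet the difference did not pass the threshold. Its log2 fold change was 0.20 with a 95% interval from -0.05 to 0.45 (edgeR BH-adjusted p = 0.219). In all, the groups did not overlap for 6 of the 10 RNAs, and for 42.4% of all genes tested.

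The remaining hosts were low and their libraries overlapped. *Snhg1*, a host of 8 annotated snoRNAs, was at 18.1, 22.5 and 20.6 CPM in WT and at 17.9, 19.8 and 19.3 CPM in KO libraries, with a log2 fold change of -0.11 (95% interval -0.28 to 0.06). *Snhg8*, the host of *Snora24*, was at 8.98, 7.20 and 10.9 CPM in WT and at 8.37, 8.27 and 9.18 CPM in KO libraries, with a log2 fold change of -0.05 (95% interval -0.31 to 0.21). *Epb4.1l4aos*, on chromosome 18, was at 4.00, 3.73 and 4.53 CPM in WT and at 4.61, 2.97 and 3.54 CPM in KO libraries, with a log2 fold change of -0.12 (95% interval -0.48 to 0.24). *Snhg8* had 131 to 171 counts per library and *Epb4.1l4aos* 47 to 87, and the intervals of both include a difference of the size seen for *Malat1*.

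Levels of different RNAs were compared per kilobase of merged annotated exon. In WT hearts *Malat1*, at 3919 ± 75.0 CPM per kilobase (SD, n = 3), stood far above *Neat1*, at 22.9 ± 0.497, and *Gas5*, at 18.6 ± 0.487. *Snhg8* (10.6 CPM per kilobase), *Epb4.1l4aos* (9.50), *Kcnq1ot1* (8.71) and *Snhg5* (8.45) followed, each overlapping the next in its range over libraries. *Snhg1* (6.86), *Rian* (5.09) and *Snhg12* (2.73) came last and did not overlap. In KO hearts the order of *Neat1* and *Gas5* was exchanged, with *Gas5* at 18.8 ± 0.831 and *Neat1* at 12.4 ± 0.140 CPM per kilobase, and *Rian* (6.74) overlapped *Snhg5* (6.69), which overlapped *Snhg1* (6.39). The annotated exons of *Gas5*, *Snhg1*, *Snhg5*, *Snhg8* and *Snhg12* include transcripts that keep their introns, so their levels per kilobase understate those of the spliced RNA. *Neat1* was divided by all 20771 bases of its long transcript, which its short transcript does not span. The order of *Neat1* and *Gas5* in either group therefore depends on the lengths used.

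**Figure D3:**
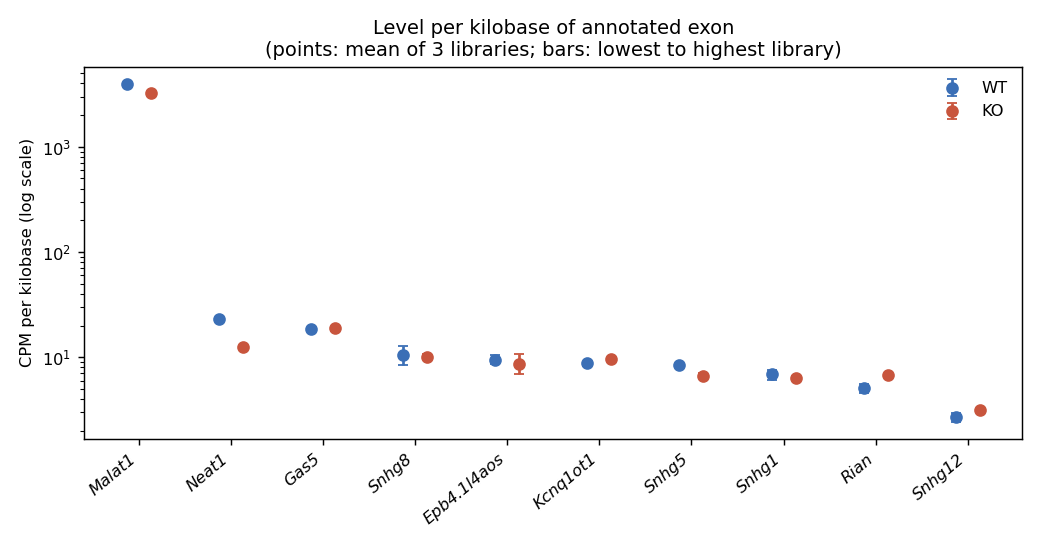
Level of each RNA in CPM per kilobase of merged annotated exon on a log axis, as the mean of 3 WT (blue) or 3 KO (red) libraries with bars from the lowest to the highest library. *Malat1* lies at 3919 in WT and 3220 in KO hearts. At the exon lengths used, *Neat1* is above *Gas5* in WT and below it in KO hearts.

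Few of the small RNAs hosted by these genes had a row of their own. Loci were matched to rows by name alone, and many carry names such as *Gm26224*. As the annotation used for counting is not given, a locus without a row may not have been counted at all. Of the snoRNA loci annotated inside the hosts, with overlapping entries counted as 1, the table holds 1 of 9 in *Gas5*, 1 of 8 in *Snhg1*, 1 of 4 in *Snhg12* and 2 of 13 in *Rian*. It holds 0 of 2 in *Snhg5*, 0 of 1 in *Snhg8* and 0 of 1 in *Epb4.1l4aos*, and of 4 microRNAs inside *Rian* it holds *Mir341*. The box C/D snoRNAs in the table are shown with a TGATGA (box C) and the last CTGA (box D) in capitals where they have them, as GRCm38 transcript sequence on the sense strand. *Snord22* holds a CTGA but not the letters TGATGA.
Snord47, in Gas5: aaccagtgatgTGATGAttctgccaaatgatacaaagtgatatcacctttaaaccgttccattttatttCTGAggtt
AF357425, in Rian: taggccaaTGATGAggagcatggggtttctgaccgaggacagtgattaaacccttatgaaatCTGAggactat
DQ267102, in Rian: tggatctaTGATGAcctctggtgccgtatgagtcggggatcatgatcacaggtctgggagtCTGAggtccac
Snord22, in Snhg1: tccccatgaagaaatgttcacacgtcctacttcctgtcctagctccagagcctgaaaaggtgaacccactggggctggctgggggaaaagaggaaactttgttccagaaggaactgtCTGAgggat
Of 1507 annotated snoRNA transcripts of both classes, 24.0% held the TGATGA followed by a CTGA. The arms of the microRNA inside *Rian* are given from RefSeq with the seed (bases 2 to 8) in capitals.
mmu-miR-341-5p: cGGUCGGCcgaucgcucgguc
mmu-miR-341-3p: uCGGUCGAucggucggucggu

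These rows had few counts. *Snord47* had 27, 17 and 5 counts in the WT libraries and 30, 48 and 22 in the KO libraries, and the groups overlapped. Its log2 fold change of 1.00 (standard error 0.371) had an edgeR BH-adjusted p of 0.0414, which rose above the threshold with DESeq2 and without WT b, WT c, KO a or KO b, up to 0.331. *DQ267102* had 15, 9 and 5 counts in WT and 21, 17 and 18 in KO libraries (log2 fold change 0.91, edgeR BH-adjusted p = 0.0639), and passed with the exact and likelihood ratio tests, with voom and without WT a. *AF357425* and *Mir341* had 9 to 24 and 11 to 23 counts per library, with log2 fold changes of 0.39 and 0.38 that did not pass, and *Snora44*, with 7 to 25 counts, had 0.88 and did not pass either, except with the likelihood ratio test and without KO a. *Snord22*, inside *Snhg1*, had 112 to 254 counts per library and a log2 fold change of 0.09 (standard error 0.213), and passed only without WT c. RNAs of this size are largely lost from libraries of fragmented total RNA, and reads from a host that keeps its intron can fall on these rows.

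Within the domain of *Rian*, its 2 neighbouring noncoding RNAs did not pass the threshold. *Meg3*, the maternally expressed long noncoding RNA upstream of *Rian*, had 230 ± 13.3 CPM in WT against 222 ± 5.18 in KO hearts (SD, n = 3 each), with a log2 fold change of -0.05 (standard error 0.0374) that did not pass the threshold. *Rian* had 0.463, 0.415 and 0.338 counts for each *Meg3* count in the WT libraries and 0.526, 0.566 and 0.566 in the KO libraries. Every KO library had the higher ratio, with a two-sided exact permutation p of 0.10, the smallest that 3 against 3 libraries allow. *Mirg*, the microRNA host downstream of *Rian*, had a log2 fold change of 0.35 (standard error 0.155) and did not pass, except without WT b.

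Of the 8 genes of the *Dlk1*-*Dio3* domain in the table, *Rian* itself included, 2 were higher past the threshold, 0 lower and 6 did not pass. Over all genes tested 30.3% were called. The median log2 fold change of the 8 was 0.10. The other riser was *Dlk1*, a paternally expressed growth regulator of the Notch ligand family, with a log2 fold change of 0.19 (standard error 0.0454, edgeR BH-adjusted p = 0.00191). *Rtl1*, the retrotransposon-derived gene that lies 3609 bases from *Rian* on the opposite strand, had a log2 fold change of 0.03 (standard error 0.108). No *Dio3* row was analysed here.

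In the domain of *Kcnq1ot1*, *Cdkn1c* and *Kcnq1* did not pass the threshold. *Cdkn1c*, a cyclin-dependent kinase inhibitor expressed from the maternal chromosome, had 87.7 CPM in WT against 89.6 in KO hearts (log2 fold change 0.03, standard error 0.0502). *Kcnq1* itself went from 76.6 ± 4.16 to 77.4 ± 5.35 CPM (SD, n = 3 each; log2 fold change 0.01, standard error 0.0516). *Phlda2* was not analysed here. Of 11 genes of the domain in the table, these included and *Kcnq1ot1* left out, 2 were higher, 1 lower and 8 did not pass, where 30.3% of all genes were called, with a median log2 fold change of 0.03. *Dhcr7*, the last enzyme of cholesterol synthesis, fell by 0.46 on the log2 scale (standard error 0.0697). *Cars*, a cysteinyl-tRNA synthetase, and *Trpm5*, a cation channel gene at 1.19 and 2.00 CPM, were higher with log2 fold changes of 0.21 and 0.76. Both lost their call without WT b or KO c, and *Trpm5* also without WT c or KO a.

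**Figure D4:**
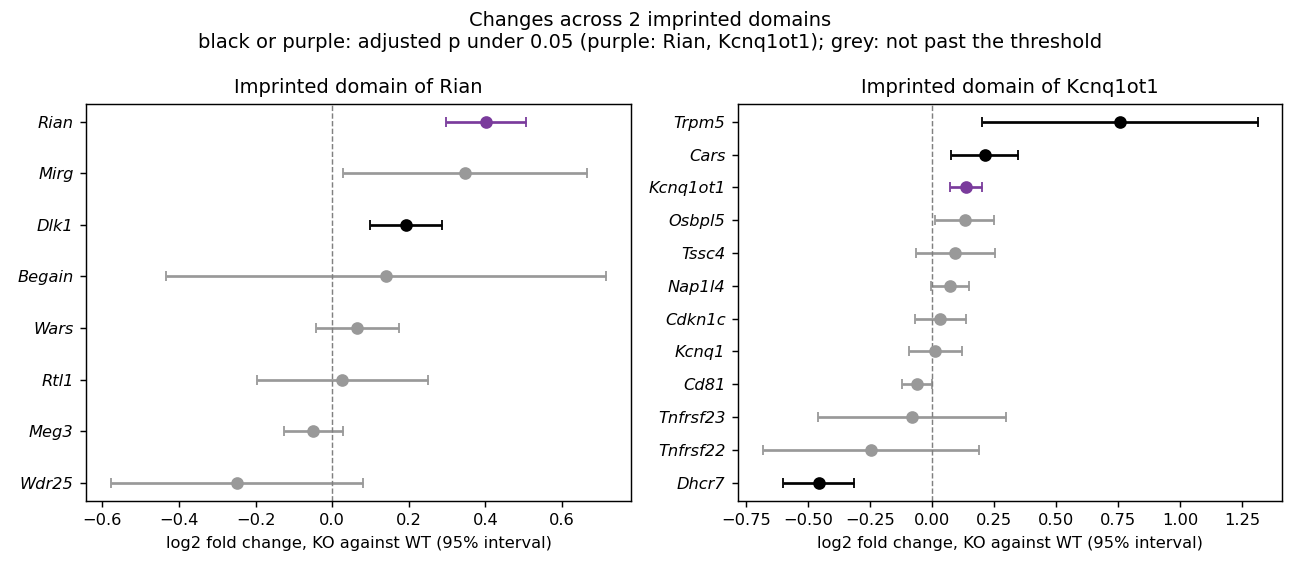
Log2 fold changes with 95% intervals of the genes of 2 imprinted domains that are in the table. *Rian* (0.40) and *Dlk1* (0.19) passed the threshold on the left while *Meg3* (-0.05) did not, and on the right *Kcnq1ot1* (0.14), *Cars*, *Trpm5* and *Dhcr7* passed while *Cdkn1c* and *Kcnq1* did not.

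Further RNAs of both kinds are given by lists. Of 15 other small RNA hosts, 2 were higher, 2 lower and 11 did not pass, where 30.3% of all genes tested were called. Their median log2 fold change was -0.05. *Snhg14*, the long imprinted host of the *Snord115* and *Snord116* clusters, fell from 10.1 to 5.04 CPM (log2 fold change -1.01, standard error 0.127). *Mir17hg*, the host of the miR-17 cluster, fell by 0.61 on the log2 scale (standard error 0.122), and *Zfas1*, listed as *1500012F01Rik*, rose by 0.43 (standard error 0.102). *Snhg20* (0.60, standard error 0.156) was the other riser and lost its call without KO a (edgeR BH-adjusted p = 0.0696).

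Of 19 further nuclear, imprinted or heart-expressed long noncoding RNAs, 9 were lower, 5 higher and 5 did not pass. Among all genes tested 30.3% were called. The median log2 fold change of the 19 was -0.15. *Airn*, the paternally expressed antisense RNA of the *Igf2r* domain, rose from 86.9 ± 1.22 to 119 ± 4.99 CPM (SD, n = 3 each; log2 fold change 0.45, standard error 0.0417). *Mhrt*, the antisense RNA of *Myh7*, had 0.41 (standard error 0.0721). It had 23.6 CPM in WT hearts against 19536 CPM for *Myh7*, and reads of this pair may be mixed unless they were counted by strand. *Jpx* and *Ftx*, X-linked genes of the *Xist* region, rose by 0.96 and 0.69 and share the difference in sex described above. Among those that fell, *Mir22hg* and *Lincpint* had log2 fold changes of -1.13 and -1.43, *Mir143hg* -0.64 and *Mir99ahg* -0.61. *Lincpint* was low, with 26 to 45 counts in WT and 8 to 23 in KO libraries, and its standard error was 0.300. *H19*, the imprinted RNA of the *Igf2* domain, which was chosen after its values were seen, fell from 2636 ± 183 to 2365 ± 53.7 CPM (SD, n = 3 each; log2 fold change -0.16, standard error 0.0310).

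By annotation, 500 genes classed as long noncoding RNAs were tested, of which 62 were higher and 81 lower. So 28.6% were called, against 30.4% of 13015 protein coding genes. Of 79 with a mean of at least 10 CPM, 16 were higher and 24 lower, and the RNAs described here hold 7 of those 79, with 2 higher and 3 lower. *Malat1* ranked first in level among the 500, *Kcnq1ot1* in place 5, *Neat1* in place 6, *Rian* in place 14 and *Gas5* in place 19. *Epb4.1l4aos*, in place 214, was the lowest of the 10. Each symbol took the class of the first annotated gene of that name. Some protein coding genes, such as *Cct6a* (place 11), *Tmem134*, *Trerf1*, *Ptpmt1* and *Zswim6*, are therefore counted among the 500 and the 79. These totals, shares and places are approximate for that reason.

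**Figure D5:**
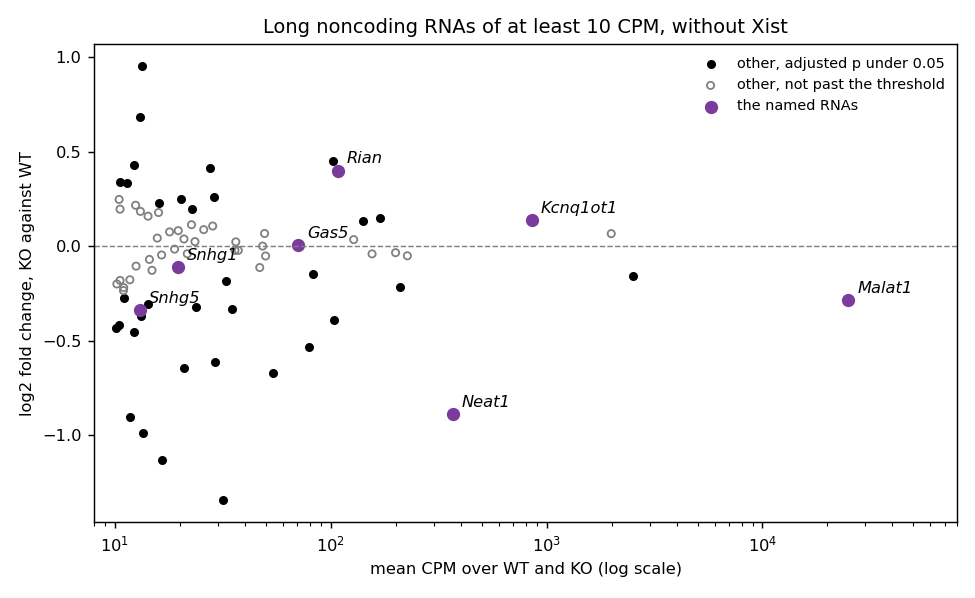
Mean CPM (log axis) against log2 fold change in KO against WT hearts for genes classed as long noncoding RNAs of at least 10 CPM. Some protein coding genes such as *Cct6a* are among them, and *Xist*, which lies at 8.76, is left out. The 7 named RNAs at this level are labelled, and *Neat1* (-0.89) is the lowest of those above 100 CPM.

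Genes of the proteins that gather with *Neat1* and *Malat1* are set against the 30.3% of all genes that were called. Of 20 genes of paraspeckle proteins, 2 were lower, 1 higher and 17 did not pass, with a median log2 fold change of -0.0029. The core proteins *Nono*, *Sfpq* and *Pspc1* had log2 fold changes of -0.07, 0.06 and 0.06 with standard errors of 0.0355, 0.0326 and 0.0521, none past the threshold. *Cpsf6* (-0.12) and *Hnrnph1* (0.09) passed, each losing its call without at least 3 of the 6 libraries in turn. The count of lower genes was 0 without KO a or KO c and 1 without WT a, WT b or KO b, and the count of higher genes was 0 without WT b, KO a or KO b and 3 without WT c.

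Of 24 genes of nuclear speckle and SR proteins, 6 were higher, 4 lower and 14 did not pass, with a median log2 fold change of -0.0056. The splicing factor *Srsf5* fell from 231 to 186 CPM (log2 fold change -0.31, standard error 0.0355). *Srsf6*, *Srsf7* and *Srsf3*, of the same family, rose by 0.25, 0.21 and 0.20 (standard errors 0.0372, 0.0485 and 0.0348), and *Ddx39b*, an RNA helicase of splicing and export, rose by 0.15. *Srrm2*, a scaffold of speckles, fell by 0.10 (standard error 0.0240). *Srsf10* (-0.16) and *Rbm25* (-0.12) were the other lower genes, and both lost their call without KO a (*Rbm25* also without KO c), which left 2 lower genes.

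Among the partners of the host RNAs, of 20 genes of snoRNP proteins, 2 were higher, 1 lower and 17 did not pass. The share called over all genes tested was 30.3%. The median log2 fold change of the 20 was 0.02. *Fbl*, the methyltransferase of box C/D particles, *Nop58* and *Dkc1*, the pseudouridine synthase of H/ACA particles, had log2 fold changes of -0.02, -0.07 and -0.07 and did not pass. *Nop56* (0.16), *Ruvbl2* (0.20) and *Naf1* (-0.28) passed and all lost their call without KO a. *Nop56* also lost its call without WT a, WT b or KO c, which left 1 higher gene, and without WT a or KO b 2 genes were lower.

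Of 20 genes of nonsense-mediated decay and exon junction proteins, 6 were higher, 2 lower and 12 did not pass. Over all genes tested 30.3% were called. The median log2 fold change of the 20 was 0.05. *Upf1*, the central helicase of the pathway, rose from 97.2 to 112 CPM (log2 fold change 0.20, standard error 0.0419, edgeR BH-adjusted p = 6.20e-04). *Upf2*, its partner, and *Smg5*, which recycles it, rose by 0.29 and 0.26 (standard errors 0.0618 and 0.0480). *Dhx34* (0.29) was higher and lost its call without KO b or KO c, and *Upf3b* (0.25), which is X-linked and shares the difference in sex, lost its call without WT b, KO a or KO b. *Pnrc2* (-0.20) and *Rbm8a* (-0.22), a core protein of the exon junction, were lower, the latter losing its call without WT c, KO b or KO c. The hosts *Gas5* and *Snhg1*, which this pathway degrades in other cells, had log2 fold changes of 0.0078 and -0.11 in the same libraries. Among all 6 snoRNA hosts described here, 0 were higher, 1 was lower and 5 did not pass. Among the 15 other small RNA hosts, 2 were higher, 2 lower and 11 did not pass. Any link between the decay genes and the hosts was not tested.

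Of the genes next to the 10 RNAs, 18 distinct protein coding neighbours were in the table. Of these 2 were higher, 3 lower and 13 did not pass, where 30.3% of all genes tested were called. *Slc3a2*, an amino acid transporter subunit whose gene lies 105 bases from *Snhg1* on the opposite strand, fell from 50.7 to 38.7 CPM (log2 fold change -0.39, standard error 0.0548), where *Snhg1* had -0.11 (standard error 0.0831). *Trnau1ap*, 738 bases from *Snhg12* on the opposite strand, had 0.16 (standard error 0.0881) and did not pass. *Zbtb37* overlaps *Gas5* in part on the opposite strand and had 0.17 (edgeR BH-adjusted p = 0.0442), a call that was lost in 5 of the 6 fits with 1 library left out. Reads from such pairs cannot be told apart unless they were counted by strand.

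Other measures moved with the genotype too. The ribosomal RNA gene *Rn45s*, whose precursor is made in the nucleolus, made up 2.21% to 2.48% of each WT library and 2.70% to 2.79% of each KO library. Leaving it out of the scaling moved the log2 fold change of none of the 10 RNAs past the second decimal. The counts of cell type markers below stand beside the 30.3% of all genes tested that were called. Of 10 cardiomyocyte markers, 9 were lower and *Myh7* higher in KO hearts (log2 fold change 0.05, a call lost with DESeq2, the exact and likelihood ratio tests and without WT a, WT b, KO a or KO c), and their summed level went from between 133260 and 137130 to between 125330 and 126700 CPM. Of 6 atrial markers 3 were higher, *Myl4*, *Myl7* and *Nppa* (sum of the 6, 594.8 to 601.1 CPM in WT, 1005.8 to 1030 CPM in KO). *Nr2f1*, *Nr2f2* and *Stard10* had log2 fold changes of -0.23, 0.06 and -0.09 and did not pass. Of 6 epicardial markers 3 were higher (124 to 127 CPM and 141 to 155 CPM). Of 7 endothelial and 7 fibroblast markers, 3 each were lower (1146 to 1152 against 1081 to 1095 CPM, and 3915 to 3958 against 3647 to 3720 CPM). Of 7 leukocyte markers 1 was lower (39.3 to 42.5 and 38.1 to 44.4 CPM), and of 3 erythroid markers 1 was higher and 1 lower (33.5 to 35.5 and 35.8 to 43.0 CPM), with no hemoglobin row analysed here. The part of these cell types, of the nucleolar RNA and of sex in the changes of the long noncoding RNAs was not tested.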

How the data were processed

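RNA-seq of ventricular tissue was analysed from 3 WT and 3 KO libraries. Total RNA was depleted of ribosomal RNA and sequenced in paired ends. The submitters' processing notes name cutadapt 1.18, HISAT2, StringTie and mm10 (GRCm38). The counting program, annotation and strand setting are not given in the sources used here. Raw counts per gene were deposited in 1 column per library, beside columns of the authors' own comparison (fold changes, levels and significance), which were not used. Columns were grouped by the genotype in their names.

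Counts were filtered with filterByExpr (13804 of 13809 genes kept), scaled with TMM and tested by the quasi-likelihood test of edgeR 4.0.16 in R 4.3.3 with genotype as the only term. CPM are counts per 1000000 after TMM scaling, standard errors are log2 fold changes over the square root of F, and lengths are merged exons of GENCODE M21. Of the symbols, 13299 matched directly, 408 through an older symbol, and 102 did not match. In simulated counts with 200 of 13801 genes changed 1.5-fold, 171 were recovered, with 11 false calls. The RNAs, the lists and the rule for named genes (all 10 RNAs, up to 4 called genes per list and direction, defining genes, hosted rows and neighbours) were chosen with earlier results of these data known. Alternatives were RLE scaling, TMM without *Rn45s* or from protein coding genes, DESeq2 1.42.0, edgeR's exact and likelihood ratio tests, voom of limma 3.58.1, other filters, X and Y left out, and each library left out. Figures used matplotlib 3.10.9. Values of some genes of the lists and neighbours are not reported here.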

Additional observations from a re-analysis of the deposited data

How the results depend on the processing

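No paired analysis was possible because replicate numbers are missing from the columns. Under each of the 16 alternatives 2 of the 10 RNAs were higher and 3 lower past the threshold, and *Neat1* (-0.90 to -0.87), *Malat1* (-0.30 to -0.26), *Snhg5* (-0.37 to -0.30), *Kcnq1ot1* (0.09 to 0.17) and *Rian* (0.33 to 0.46) kept their direction and call in all of them. Direction reversed, without a call, for 3 hosts when 1 library was left out: *Gas5* ranged from -0.0203 (without KO b; -0.0136 without WT a) to 0.0421, *Snhg8* from -0.202 to 0.0978 (without WT c), and *Epb4.1l4aos* from -0.311 to 0.00622 (without KO b). Without a call or a change of direction, *Snhg1* ranged from -0.188 to -0.0282 and *Snhg12* from 0.130 to 0.263. Over all genes, 1362 (DESeq2) to 2199 (likelihood ratio test) were higher and 1639 (DESeq2) to 2306 (without WT c) lower. With DESeq2 the paraspeckle list had 0 higher and 1 lower gene (1 lower with voom), the *Kcnq1* domain 0 higher, the snoRNP list 1 higher and the decay list 3 higher, because borderline genes missed the threshold, and with X and Y left out the nuclear list had 3 higher in place of 5, as *Jpx* and *Ftx* are X-linked, and the decay list 5 in place of 6, without *Upf3b*. *Ttn* lost its call with DESeq2 and with the exact and likelihood ratio tests, and *Tnni3* with DESeq2. The decay list had 1 lower gene without KO b or KO c, and the host list 1 higher gene without KO a. Over all genes the median log2 fold change lay between 0.00054 and 0.0031. The hosts below 10 CPM had 47 to 171 counts per library, and apart from *Snord22* the hosted small RNAs had 5 to 48.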

Other observations

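Some further long noncoding RNAs above 10 CPM were picked out after their values were seen. *Gm16907* fell from 45.6 to 17.9 CPM, a log2 fold change of -1.34 (standard error 0.0639). *Gm15910* fell from 66.0 to 41.8 CPM (-0.67, standard error 0.0668), and *B430010I23Rik* fell by 0.99 on the log2 scale (standard error 0.0901). *Rmrp*, the RNA of a nuclear ribonuclease, went from 1946 ± 63.9 to 2039 ± 235 CPM (SD, n = 3 each), with a log2 fold change of 0.07 that did not pass the threshold.

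The annotated small noncoding RNAs that were tested, 103 in all, included 5 higher and 21 lower ones. This is 25.2% called, against 30.3% of all genes tested, and their median change was -0.10 on the log2 scale. Of the hosted rows of *Gas5*, *Snhg1*, *Snhg12* and *Rian* among them, *Snord47* alone passed, in the higher direction, a call lost in 5 alternatives, while *DQ267102* and *Snora44* passed in some of them.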
